A study of Mus musculus with 12 samples.

Results

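Interferon-stimulated genes are the genes that cells switch on after type I or type II interferon, and 36 of them, listed by name, are described here by the open chromatin around them in 12 libraries of mouse macrophages. Peaks of the 12 libraries that overlapped or touched were merged, regions found in at least 2 libraries were kept, and those within 10 kb of the span of a listed gene in the mm10 genome were taken. This gave 135 regions of 76042, and 51 of these 135 were among the 26378 regions called in all 12 libraries. Of the 36 genes, 34 had at least 1 region. Ifi44, an interferon-induced gene of unclear function, and Iigp1, an immunity-related GTPase, had none within 10 kb. Neighbouring members share regions, such as Rsad2 with Cmpk2, Oas2 with Oas3, and Tap1 with Psmb8 and Psmb9.

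The libraries are ATAC-seq, in which a transposase inserts adapters into accessible DNA, of RAW264.7 cells, a transformed mouse macrophage line. Stable derivatives carried either Nur77 (the product of Nr4a1, a nuclear receptor) or green fluorescent protein (GFP) under doxycycline control, and all 12 samples received 1 µg/ml doxycycline for 18 h. The 4 groups of 3 libraries were GFP untreated, GFP with 500 ng/ml lipopolysaccharide (LPS) for 1 h, Nur77 untreated and Nur77 with the same LPS. The labels give neither the number of clones behind each line nor whether replicates were separate cultures, so p-values measure only how far these samples spread, and that spread may be technical. A difference between the lines therefore cannot be told apart from a difference between the clones or pools that carry the transgenes.

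Interferons bind receptors that activate the kinases Jak1, Jak2 and Tyk2. Type I interferon then drives a complex that holds Stat2 and Irf9 to interferon-stimulated response elements (ISRE), while interferon gamma acts through GAS elements. LPS, the outer-membrane endotoxin of Gram-negative bacteria, acts through Tlr4, which induces inflammatory genes through NF-kB and interferon beta through Irf3, so in macrophages many of these genes respond to LPS directly and through secreted interferon. Their products block viral translation and replication, sense foreign RNA, attack vacuoles that hold microbes, and feed antigen presentation.

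The promoters shown next belong to members with an ISRE string before the start and a start-site region that passed a test after LPS, upward for the first 5 and downward for Irgm1 and Oas3. In Ifih1, whose start region also moved, the string lies after the start. Each is the 160 bases directly before the annotated start, from RefSeq on GRCm38.p6, the assembly behind mm10, written on the gene's own strand. Capitals mark the ISRE core, which is GAAA, any 2 bases and GAAA again, or its reverse complement, with overlapping matches run together.
Ifit1, chr19:34640729-34640888, plus strand: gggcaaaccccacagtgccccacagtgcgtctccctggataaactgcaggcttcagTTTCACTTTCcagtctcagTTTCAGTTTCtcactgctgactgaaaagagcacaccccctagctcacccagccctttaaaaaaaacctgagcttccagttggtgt
Isg15, chr4:156200819-156200978, minus strand: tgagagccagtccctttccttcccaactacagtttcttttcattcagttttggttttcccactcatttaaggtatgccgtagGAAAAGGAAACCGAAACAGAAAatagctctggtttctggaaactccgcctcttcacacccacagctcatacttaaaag
Gbp2, chr3:142620503-142620662, plus strand: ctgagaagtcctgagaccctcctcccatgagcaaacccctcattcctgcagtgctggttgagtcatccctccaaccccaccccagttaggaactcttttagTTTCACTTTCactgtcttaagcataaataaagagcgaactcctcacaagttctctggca
Gbp3, chr3:142559884-142560043, plus strand: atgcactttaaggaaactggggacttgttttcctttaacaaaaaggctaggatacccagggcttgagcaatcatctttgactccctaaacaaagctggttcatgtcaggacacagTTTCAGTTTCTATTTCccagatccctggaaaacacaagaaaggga
Rsad2, chr12:26456453-26456612, minus strand: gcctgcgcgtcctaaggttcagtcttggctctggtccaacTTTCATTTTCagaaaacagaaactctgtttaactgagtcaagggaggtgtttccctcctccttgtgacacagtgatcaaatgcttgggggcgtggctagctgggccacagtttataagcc
Irgm1, chr11:48871421-48871580, minus strand: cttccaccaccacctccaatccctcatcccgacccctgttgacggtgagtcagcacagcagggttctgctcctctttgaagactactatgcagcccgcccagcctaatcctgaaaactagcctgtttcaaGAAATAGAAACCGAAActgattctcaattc
Oas3, chr5:120777660-120777819, minus strand: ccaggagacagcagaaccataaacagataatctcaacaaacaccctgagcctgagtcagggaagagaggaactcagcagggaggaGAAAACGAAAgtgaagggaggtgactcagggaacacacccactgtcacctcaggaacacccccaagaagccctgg

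The ISRE core was searched on both strands in windows of 300 bases, most of them upstream, around each annotated start. It was found for 17 of the 30 members with an entry in the promoter table, against 3.99% of all 27025 genes in the table and 3.44% of its 32851 windows. In Ifit1 the matches began 104 and 85 bases before the start, in Isg15 there were 3 overlapping matches between 78 and 66 bases before it, and in Gbp2 a lone match stood 59 bases before it. The other members with a match were Bst2, Eif2ak2, Gbp5, Gbp7, Ifih1, Ifit3, Igtp, Irgm2, Oas1a and Stat2. A match is a string of letters, not a measured binding site. The GAS string TTCNNNGAA was found for 11 of the 30 members and 9.55% of all genes, the NF-kB string, GGG, any 5 bases and CC, for 22 and 53.5%, the AP-1 string TGANTCA for 7 and 8.97%, and the Nur77 element AAAGGTCA for 1, Irf9, and 1.7%. NF-kB matches are thus common in any promoter. Oas2, Usp18, Dhx58, Iigp1, Zbp1 and Parp14 have no entry in that table.

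Each library is a list of 36184 to 81467 peaks. Length differed as much within groups as between them, with 48275, 56888 and 81467 peaks in the GFP LPS libraries and 55656, 36184 and 55446 in the untreated Nur77 libraries. The lists carry no read totals, so their length is the only measure of depth, and an uncalled region is one not detected at that depth. Ranks were therefore used in place of peak height. The rank of a region in a library is the percentage of the 26378 shared regions that were weaker there by the authors' -log10 q, so 0 is the bottom and 100 the top of the same set in every library. Macrophage identity was visible in the lists, since all 11 macrophage marker genes examined, among them Csf1r, Spi1 and Adgre1, had a region at a gene end in all 12 libraries. Markers of other cells had such a region for 2 of 6 T cell, 1 of 5 B cell, 1 of 6 fibroblast, 0 of 4 epithelial and 2 of 5 neuronal genes. The lists carry no measure of the transgenes: peaks covered 9.43% to 24.8% of the span of Nr4a1 in GFP libraries and 13.0% to 26.1% in Nur77 libraries.

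Member regions were called more often after LPS on average, and a lone gene, Ifih1, held many of the added calls. Of its 27 regions, 22 were called in at least 2 LPS and no untreated library, so they are in the set only through LPS libraries and their excess of calls there follows from that choice. The mean was 85.3 ± 5.7 of 135 (SD, n = 3) without and 110.0 ± 21.0 with LPS in the GFP line, and 71.3 ± 13.4 and 96.3 ± 11.2 in the Nur77 line. Of the 135 regions, untreated GFP libraries called 79, 90 and 87, and GFP LPS libraries 89, 110 and 131. Untreated Nur77 libraries called 81, 56 and 77, and Nur77 LPS libraries 109, 88 and 92. The GFP ranges overlap, and the Nur77 LPS libraries all lie above the untreated ones. Ifih1, with 27 regions, had 3, 4 and 3 calls in GFP untreated and 10, 22 and 27 in GFP LPS libraries, and 2, 2 and 5 against 20, 14 and 11 in the Nur77 line. Over the 108 regions of the other members, calls were 76, 86 and 84 against 79, 88 and 104 in the GFP line, and 79, 54 and 72 against 89, 74 and 81 in the Nur77 line, so the ranges overlap in both. Over all 76042 regions the mean share called was 72.4% ± 6.0 (SD, n = 3) in untreated GFP, 71.1% ± 16.8 in GFP LPS, 58.9% ± 13.5 in untreated Nur77 and 62.7% ± 8.6 in Nur77 LPS libraries.

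**Figure D1:**
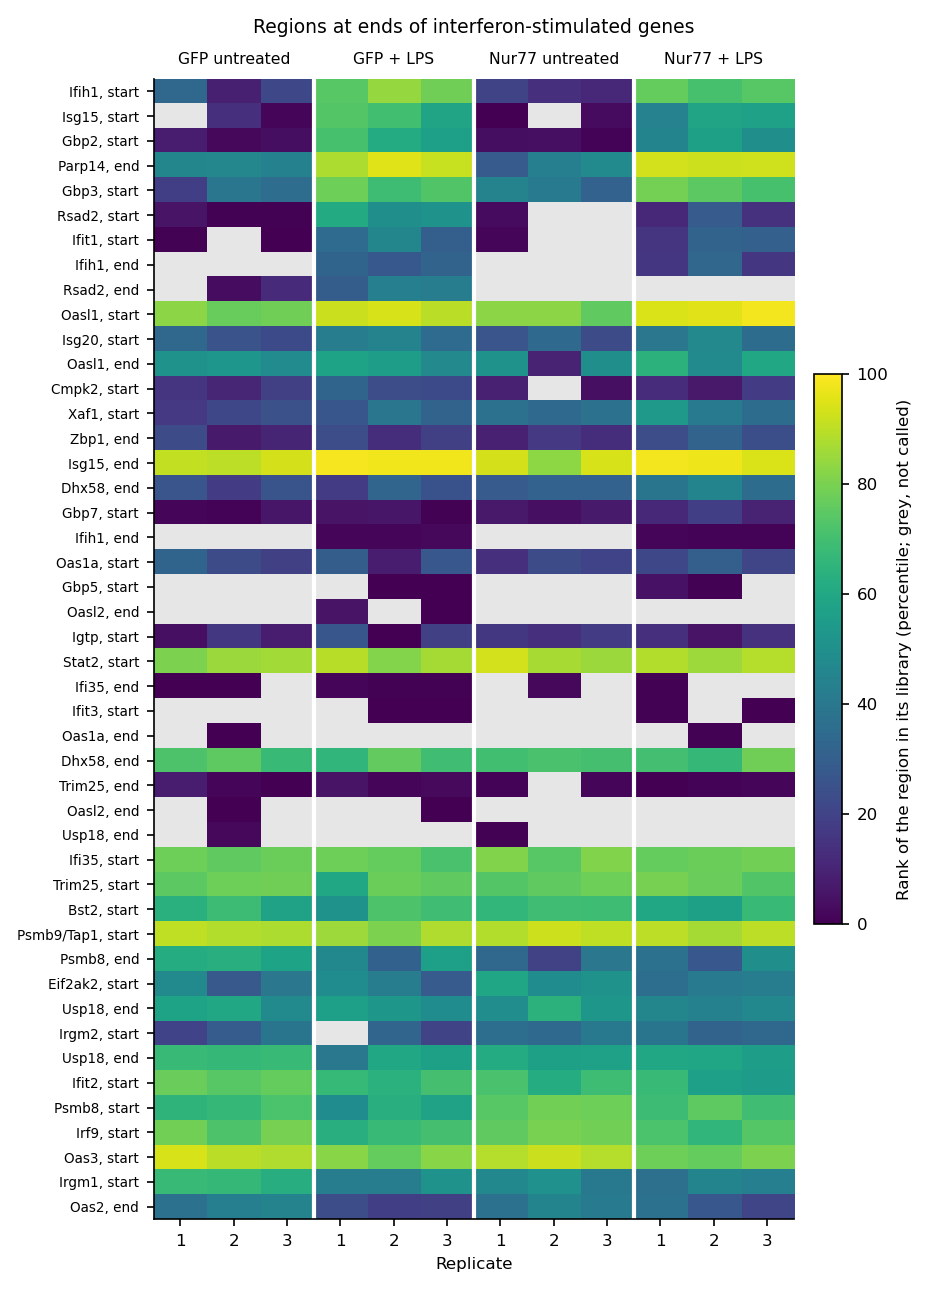
Rank (color, percentile from 0 to 100) of the 46 regions within 1000 bp of an end of a member gene, by library. Rows are ordered by the LPS difference summed over both lines; "start" marks regions holding the annotated start, "end" any other gene end or an end whose strand is not given, and grey a region not called. Rows at the top, such as Ifih1, Isg15 and Gbp2, turn bright in all 6 LPS libraries, most rows in the middle keep their color, and Oas3, Irgm1 and Oas2 at the bottom are darker in most LPS libraries than in untreated GFP libraries.

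Ranks of the 51 regions called in every library were compared with limma over all 26378 shared regions. In the GFP line 10 of the 51 ranked higher after LPS and 6 lower at an adjusted p of at most 0.05, where 10.3% of all shared regions ranked higher and 8.54% lower. Among Nur77 libraries 7 ranked higher and 2 lower, where 8.28% of all shared regions ranked higher and 5.95% lower. The median difference of the 51 was 0.97 percentile points in the GFP line and 0.88 in the Nur77 line, against -1.04 and -0.64 over all shared regions. Without a test, ranks of all 3 LPS libraries lay above all 3 untreated ones at 12 of the 51 and below them at 10 in the GFP line, against 16.5% and 19.2% of all shared regions, and at 14 and 7 in the Nur77 line, against 14.1% and 16%. The balance depended on how a call was defined. Where peaks had to cover at least 50% of a region, a choice made after the data were seen, 24 member regions were shared by all libraries, and 2 of them ranked higher and 4 lower in the GFP line and 0 and 2 in the Nur77 line, where 8.91% and 5.63%, and 6.38% and 4.28%, of all shared regions did. Early LPS genes such as Tnf, Nfkbia and Tnfaip3, used for orientation, had 18 of 32 shared regions ranked higher in each line.

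Regions missing from any library cannot be in the shared set, and several member promoters are of that kind. For these, limma was also run on all 76042 regions with a missing call set to 0, a choice made after the data were seen. A group whose values were all set to 0 adds no spread to the estimate that the 4 groups share. Standard errors and adjusted p of this fit may therefore be too small where calls are missing. That run called 6.79% of all regions higher after LPS in the GFP line and 3.76% in the Nur77 line, 3.38% and 1.7% lower. Between the lines it called 1.03% higher and 2.75% lower in Nur77 cells without LPS, and 1.42% and 4.58% with LPS. It is called the all-region fit, and is used here mainly to give values for named regions. Its few counts of member regions include regions that only some groups called.

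The IFIT proteins bind viral RNA lacking host cap marks. At the Ifit1 start, chr19:34640125-34641322, the rank was 0.4 and 0.1 in GFP untreated replicates 1 and 3, replicate 2 had no call, and LPS libraries stood at 34.8, 45.9 and 30.4. For Nur77 cells it was 1.5 in replicate 1 and not called in replicates 2 and 3 before LPS, and 14.9, 31.8 and 30.8 after. All 6 LPS libraries lie above all 6 untreated ones, and this is the promoter with the ISRE matches printed first. The all-region fit gave differences of 36.8 ± 5.3 (SE; adjusted p = 0.00213) and 25.3 ± 5.3 (adjusted p = 0.024). The Nur77 call was lost, with adjusted p from 0.059 to 0.0902, without any 1 of Nur77 untreated replicates 1, 2 or 3 or Nur77 LPS replicates 2 or 3.

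Ifit2 and Ifit3 did not follow Ifit1. The Ifit2 start, chr19:34550022-34551440, already ranked 77.0, 74.0 and 76.5 in untreated GFP cells and 67.1, 64.0 and 70.4 after LPS, and 71.2, 61.8 and 68.8 against 67.8, 56.3 and 55.3 in the Nur77 line. It was thus open before treatment, and no difference passed the test. The Ifit3 start, chr19:34582774-34583535, holds an annotated start with 2 ISRE strings and was called in 0 of 6 untreated and 4 of 6 LPS libraries, never above a rank of 0.5. That is close to the limit of detection.

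Isg15, a ubiquitin-like protein that is conjugated to viral and host proteins, had the strongest response of a promoter outside the shared set. Its start region, chr4:156199760-156201622, was not called in GFP untreated replicate 1 and ranked 13.4 and 1.2 in replicates 2 and 3, against 73.1, 69.6 and 58.4 with LPS. On the Nur77 side replicate 2 had no call and replicates 1 and 3 ranked 0.1 and 2.9, against 44.5, 58.4 and 57.1. Every LPS library stood above every untreated one. The all-region fit gave 62.2 ± 5.3 (adjusted p = 0.000113) in the GFP line and 52.3 ± 5.3 (adjusted p = 0.000521) in the Nur77 line.

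Of the other regions near Isg15, chr4:156202069-156204073, which lies in the span of Perm1, ranked 28.0, 37.3 and 36.8 in untreated GFP and 58.1, 53.0 and 56.0 in GFP LPS libraries. With Nur77 in place of GFP it ranked 23.6, 36.5 and 26.6 before and 42.2, 42.1 and 41.9 after LPS. The groups do not overlap in either line, but limma called the GFP difference (21.7 ± 5.1, adjusted p = 0.00755) and not the Nur77 one (13.2 ± 5.1, adjusted p = 0.104). The region at the far end of Isg15, chr4:156195446-156199680, shared with Agrn, was high throughout, at 83.0 to 93.9 untreated and 94.3 to 98.5 with LPS, a difference of 6.6 ± 2.1 in each line (adjusted p = 0.0429 and 0.0526). The GFP call was lost, with adjusted p from 0.0532 to 0.138, without any 1 of GFP untreated replicates 1 or 2, GFP LPS replicates 1, 2 or 3, or Nur77 LPS replicates 1 or 2. Farther off, chr4:156210079-156211614, also in Perm1, was called at 0.2 in GFP untreated replicate 3 alone and at 2.8, 6.0 and 9.2 in GFP LPS libraries, and never above 0.3 in the Nur77 line. Differences in the all-region fit were 5.9 ± 1.2 (adjusted p = 0.0128) for LPS in the GFP line and -5.8 ± 1.2 (adjusted p = 0.0215) between the lines after LPS, a call lost without GFP LPS replicate 2 or any 1 of Nur77 LPS replicates 1, 2 and 3 (adjusted p from 0.0534 to 0.0664).

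Usp18 removes Isg15 from proteins and restrains interferon receptor signaling, and Isg20 is an RNA exonuclease. The region 1.0 kb past the end of Usp18, chr6:121271874-121273377, ranked 67.3, 66.6 and 67.9 in untreated GFP and 39.9, 59.7 and 57.0 in GFP LPS libraries, a fall (-15.1 ± 5.1, limma adjusted p = 0.0489). In the Nur77 line its difference was -0.2 ± 5.1. The GFP call was lost under 14 of 20 alternatives, among them leaving out GFP LPS replicate 1, the lowest of the 3, which gave -8.6 (adjusted p = 0.191), or any 1 of 8 other libraries (adjusted p 0.0571 to 0.117). The other end of Usp18 ranked between 44.1 and 64.2 in all libraries and did not pass. Isg20 had a start region at 22.6 to 33.7 in untreated and 35.1 to 44.6 in LPS libraries of the GFP line, and at 23.4 to 34.0 and 35.2 to 47.0 in the Nur77 line, which did not pass the test in either line.

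The OAS enzymes make 2'-5' oligoadenylates that activate the nuclease RNase L, and Oasl1 is a related protein that restrains translation of Irf7. At Oasl1 the start region, chr5:114921127-114929198, ranked 82.7, 76.7 and 78.2 in untreated GFP and 91.8, 94.1 and 89.8 in GFP LPS libraries. Among Nur77 libraries it ranked 82.5, 82.5 and 75.7 before and 94.2, 95.6 and 98.3 after LPS. It was open throughout and still ranked higher after LPS in both lines, by 12.7 ± 2.1 (limma adjusted p = 0.000609) and 15.8 ± 2.1 (adjusted p = 0.000118).

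Called peaks also spread over the body of Oasl1. They covered 11.9%, 6.34% and 5.61% of the 14769 bases of the gene in untreated GFP and 3.03%, 1.83% and 3.11% in untreated Nur77 libraries. With LPS they covered 57.3%, 69.8% and 92.9% in the GFP line and 75.2%, 74.4% and 59.8% in the Nur77 line, so all 6 LPS libraries stood far above all untreated ones. In the 10 kb past its end the cover was 4.32% to 11.5% in untreated and 33.5% to 53.2% in LPS libraries.

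The intergenic region between Oasl2 and Oasl1, chr5:114914569-114917521, ranked 10.3, 10.9 and 2.1 without and 34.8, 23.8 and 34.3 with LPS in GFP libraries. For Nur77 cells it ranked 4.7 and 1.5, with no call in replicate 2, and 7.3, 27.0 and 22.6 with LPS. The groups are separate in both lines, although the lowest Nur77 LPS value is close to the untreated ones. In the all-region fit the difference was 23.2 ± 5.6 (adjusted p = 0.0286) in the GFP line and 16.9 ± 5.6 (adjusted p = 0.146) in the Nur77 line. The GFP call was lost, with adjusted p from 0.0563 to 0.0924, without any 1 of GFP untreated replicates 1, 2 or 3 or GFP LPS replicates 1 or 3, and with the replicate number as a block (adjusted p = 0.0675). A smaller neighbour, chr5:114913387-114914147, was called in all 3 GFP LPS libraries, 1 Nur77 LPS library and no untreated library.

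Oas3 and Oas2 went the other way. The Oas3 start, chr5:120774682-120778391, whose promoter holds an ISRE string, ranked 93.9, 89.6 and 88.2 in untreated GFP and 82.3, 76.3 and 82.4 in GFP LPS libraries. On the Nur77 side it ranked 88.8, 91.8 and 89.0 against 77.8, 76.5 and 80.2. In both lines all LPS values fall under all untreated values, with differences of -10.2 ± 2.1 in the GFP line (limma adjusted p = 0.00278), and -11.7 ± 2.1 in the Nur77 line (adjusted p = 0.00133).

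The region at an end of Oas2, chr5:120749174-120750342, ranked 37.8, 43.3 and 44.9 without and 23.6, 18.4 and 18.8 with LPS in the GFP line, a difference of -21.7 ± 5.2 (limma adjusted p = 0.00827). With Nur77 in place of GFP it ranked 37.4, 45.1 and 41.3 without and 37.8, 27.0 and 20.9 with LPS, where the groups overlap and the difference of -12.7 ± 5.2 did not pass (adjusted p = 0.125). Another Oas2 region, chr5:120740617-120741592, moved in the opposite direction: it ranked 3.0, 7.4 and 7.2 without and between 10 and 20.6 with LPS in the GFP line, and was called in none of the untreated but all of the LPS libraries of the Nur77 line, at 8.3, 13.4 and 9.4. Its all-region differences did not pass the test. Oas1a had 7 regions, and none passed. Its start region, with 2 overlapping ISRE strings, ranked between 7.5 and 32.3 in all 12 libraries without order by treatment.

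Guanylate-binding proteins (GBPs) coat and break open vacuoles that hold bacteria and parasites. Gbp2 had the widest swing of the family. Its start region, chr3:142619218-142621684, ranked 7.5, 2.0 and 3.8 in untreated GFP and 70.8, 61.5 and 56.5 in GFP LPS libraries. In the Nur77 line it ranked 3.7, 4.0 and 1.1 before and 45.2, 57.0 and 49.8 after LPS. The promoter went from the bottom of the shared regions to their middle or above in both lines, by 58.5 ± 5.0 (limma adjusted p = 1.87e-06) and 47.7 ± 5.0 (adjusted p = 1.23e-05).

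At the Gbp3 start, chr3:142559663-142561906, ranks were 18.4, 39.3 and 35.8 without and 77.8, 68.8 and 72.8 with LPS in the GFP line. Among Nur77 libraries they were 44.7, 41.0 and 31.5 without and 79.1, 74.8 and 71.0 with LPS. Gbp3 thus started higher than Gbp2 and ended in the upper part of the list, with differences of 42.0 ± 5.9 (limma adjusted p = 0.000149) and 35.9 ± 5.9 (adjusted p = 0.000668). The Gbp7 start, 30 kb away in the same cluster, ranked between 0.7 and 18.7 in all libraries, and its differences did not pass.

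In Gbp5, which promotes inflammasome activity, the region that moved lies inside the gene, chr3:142498866-142499533. It ranked 2.1, 2.6 and 2.1 without and 23.6, 40.7 and 29.6 with LPS in the GFP line. For Nur77 cells it was called in no untreated library and ranked 11.5, 15.2 and 10.9 with LPS, below every GFP LPS library. The all-region fit gave 29.0 ± 4.2 (adjusted p = 0.0021) for LPS in the GFP line, 12.5 ± 4.2 (adjusted p = 0.15) in the Nur77 line, and -18.8 ± 4.2 (adjusted p = 0.0293) for Nur77 against GFP after LPS. That last call was lost, with adjusted p from 0.052 to 0.0937, without any 1 of GFP untreated replicates 2 or 3, Nur77 untreated replicates 1 or 3, or Nur77 LPS replicates 1, 2 or 3. The difference of the 2 responses, -16.5 ± 5.9, did not pass (adjusted p = 0.416). The Gbp5 start itself was called in 2 of 3 LPS libraries of each line and in no untreated library, at ranks up to 4.7.

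Immunity-related GTPases act with the GBPs on vacuoles. The Irgm1 start, chr11:48870722-48873398, ranked 67.9, 66.6 and 62.2 in untreated GFP libraries, and every other group was lower: 42.2, 42.0 and 50.9 in GFP LPS, 46.5, 50.6 and 40.6 in untreated Nur77, and 36.9, 45.1 and 43.2 in Nur77 LPS libraries. Only the untreated GFP group stands apart. With LPS it fell in the GFP line (-20.5 ± 5.1, limma adjusted p = 0.00968), where the Nur77 difference was -4.2 ± 5.1 (adjusted p = 0.675). Nur77 against GFP in untreated cells was -19.7 ± 5.1 (adjusted p = 0.0248), a call lost without any 1 of GFP untreated replicates 1, 2 and 3 or Nur77 untreated replicates 1 and 3 (adjusted p from 0.0522 to 0.0981). The difference between the 2 LPS responses was 16.4 ± 7.2, with an unadjusted p of 0.0364 and an adjusted p of 0.571. Igtp and Irgm2, whose promoters also hold an ISRE string, had no region past the test in any comparison.

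**Figure D2:**
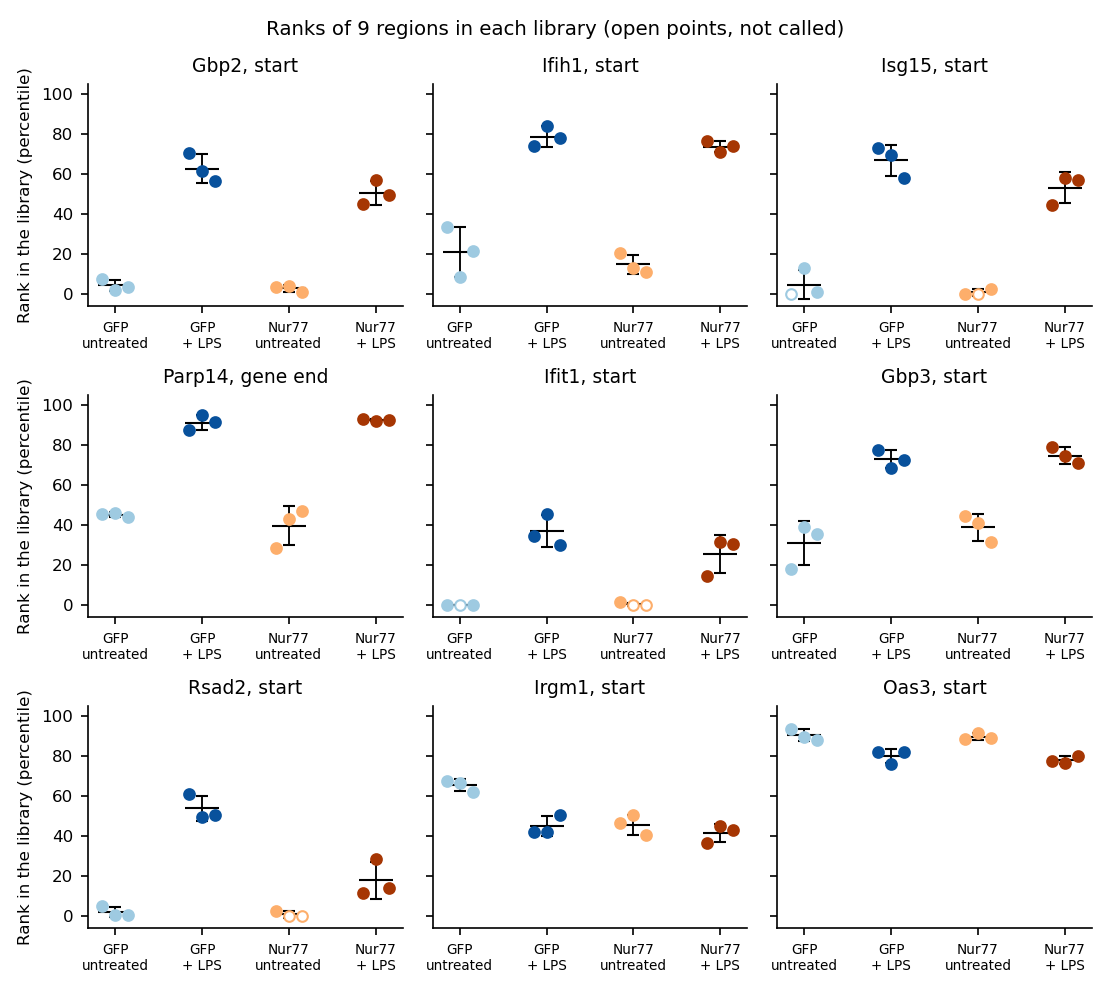
Rank (percentile, vertical axis) of 9 member regions in each library, by group. Points are libraries, open where the region was not called and drawn at 0, and bars give the mean and SD of 3 libraries. LPS points stand above untreated points in both lines for the first 7 panels, below them in both lines for Oas3, and for Irgm1 the untreated GFP libraries stand above the rest.

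Ifih1 encodes Mda5, a cytosolic sensor of long double-stranded RNA, and called peaks at this locus ran far beyond the promoter after LPS. The start region, chr2:62645326-62647075, ranked 33.7, 8.6 and 21.5 without and 74.0, 84.3 and 78.2 with LPS in the GFP line. On the Nur77 side it ranked 20.5, 13.3 and 11.0 without and 76.5, 71.0 and 74.2 with LPS. The 2 lines overlap under each condition, and LPS raised the rank by 57.6 ± 6.2 (limma adjusted p = 1.09e-05) and 59.0 ± 6.2 (adjusted p = 1.13e-05).

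Peaks covered 2.31%, 2.38% and 1.33% of the 50638 bases of the gene in untreated GFP and 1.27%, 1.24% and 3.41% in untreated Nur77 libraries. With LPS they covered 7.0%, 31.8% and 47.6% in the GFP line and 19.3%, 14.0% and 6.85% in the Nur77 line. All 6 LPS libraries exceed all 6 untreated libraries, and in the GFP line the covered share follows list length, with the longest list highest. The 10 kb past the 3' end of the gene held no peak in any untreated library. With LPS peaks filled 63.0%, 85.6% and 96.6% of it in the GFP line and 73.6%, 70.9% and 60.1% in the Nur77 line, including the library with the shortest LPS list, Nur77 LPS replicate 2.

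Cover past a gene that was absent from every untreated library was rare. Among 43774 flanks of 10 kb on either side of protein-coding genes, 41 held peaks in all 6 LPS libraries and in no untreated one, and in only 1 other, at Malt1, did every LPS library cover as large a share as at Ifih1, with a lowest value of 69.4% there against 60.1%. The gap of 20.1 kb between Ifih1 and the next gene, Fap, was covered to 38.7%, 73.7% and 88.3% in GFP LPS and 58.3%, 52.9% and 43.0% in Nur77 LPS libraries. Some other members, Oasl1, Isg15 and Rsad2 among them, gained cover from a level above 0. The 10 kb past the end of Isg15 went from 13.1% to 18.5% in untreated to 24.0% to 72.8% in LPS libraries, highest in the longest list. Others did not gain: that flank held no peak in any library at Gbp3 and Ifit1. At Irgm1 its mean cover was 42.13% without and 41.57% with LPS in the GFP line, and 42.33% and 41.57% in the Nur77 line. Counted by regions, 12 of the 27 at Ifih1 were called in at least 4 LPS libraries and in no untreated one, a number reached by 1 other gene, Cd44, among 21887. With at least 2 LPS libraries Ifih1 had 22, and 3 genes, Ifih1 included, had as many or more, Abr leading with 24. These counts were not scaled by gene length.

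Most of the regions inside the gene were weak. Of the regions past the promoter, those at the 3' end stood out: chr2:62587302-62595898 ranked 32.1, 27.4 and 31.9 in GFP LPS and 16, 33.2 and 15.9 in Nur77 LPS libraries, and chr2:62578454-62586962, 8.7 kb past the end, ranked 20.6, 29.3 and 22.5, and 12.6, 39.7 and 24.2. Neither was called in an untreated library. Regions that only LPS libraries called are described without a test, since they are in the set through those libraries alone. Counts of tested regions given below include some of them. The other regions inside the gene that no untreated library called never ranked above 7.9.

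**Figure D3:**
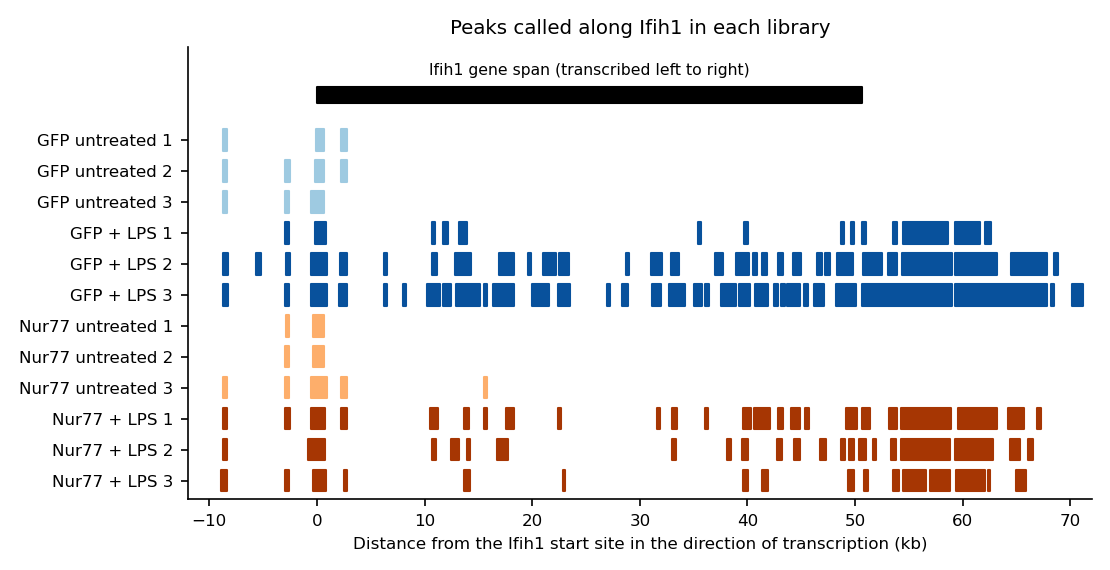
Peaks called along Ifih1 in each library; the horizontal axis is the distance from the start site in kb, counted in the direction of transcription, and the black bar is the gene span. Untreated libraries hold peaks near the start, with 1 small peak farther in, and LPS libraries of both lines hold them along the gene and most densely from its 3' end onward.

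The other sensors were quieter. Dhx58 encodes Lgp2, a regulator of Mda5, Zbp1 senses Z-form nucleic acid, and Eif2ak2 is the kinase PKR. Dhx58 had 4 shared regions, the strongest of them at 65.8 to 78.4 in all libraries. The Zbp1 end region, chr2:173218049-173220145, ranked between 7.4 and 31.8, and the Eif2ak2 start between 27.9 and 58.7. No difference at these genes passed the test.

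Stat2 and Irf9 are parts of the type I interferon complex itself. The Stat2 start was high in all libraries, at 80.4 to 93.0, and did not differ. A region 4.6 kb past Stat2, chr10:128297499-128300077, ranked 63.4, 59.7 and 62.8 without and 76.1, 79.8 and 79.5 with LPS in the GFP line. With Nur77 in place of GFP it ranked 64.7, 69.4 and 56.8 without and 77.5, 83.0 and 78.4 with LPS. It lies in the span of Il23a, a cytokine subunit gene, so it is near Stat2 by distance only. Its differences were 16.5 ± 3.5 (limma adjusted p = 0.00375) and 16 ± 3.5 (adjusted p = 0.00597).

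The Irf9 start, chr14:55603516-55605623, ranked 78.7, 71.9 and 79.3 without and 62.9, 67.3 and 70.4 with LPS in the GFP line (-9.8 ± 3.3, limma adjusted p = 0.0483). In the Nur77 line the difference was -7.6 ± 3.3 (adjusted p = 0.145). The GFP call was lost under 13 of 20 alternatives, with adjusted p between 0.051 and 0.162, among them leaving out any 1 of GFP untreated replicates 1 or 3, GFP LPS replicates 1 or 2, Nur77 untreated replicates 1 or 3, or Nur77 LPS replicates 1 or 3.

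Parp14 is an ADP-ribosyltransferase of the interferon response. The region at an end of the gene, chr16:35868482-35872869, ranked 45.9, 46.1 and 44.1 without and 87.8, 95.1 and 91.5 with LPS in the GFP line. Among Nur77 libraries it ranked 28.9, 43.1 and 47.4 without and 93.1, 92.2 and 92.6 with LPS. It moved from the middle of the list or below to near its top, by 46.1 ± 4.4 (limma adjusted p = 3.8e-06) and 52.8 ± 4.4 (adjusted p = 1.22e-06). Inside the gene, chr16:35843909-35844456 was called in no untreated library, in all 3 GFP LPS libraries at 10.9, 9.2 and 18.8, and in 2 of 3 Nur77 LPS libraries at 5.2 and 0.1. Another, chr16:35839599-35840428, was called in 2 GFP LPS and all 3 Nur77 LPS libraries at 2.1 to 12.4, and in no untreated one.

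Near the antigen processing genes a lone region passed the test for LPS, and it fell. Psmb8 and Psmb9 are immunoproteasome subunits and Tap1 is a chain of the peptide transporter into the endoplasmic reticulum. The shared Psmb9 and Tap1 start ranked 80.2 to 92.2 in all libraries and did not differ. The region chr17:34210221-34211125, 8.8 kb from Psmb8 and inside Tap2, ranked 74.1, 77.3 and 64.8 without and 26.6, 40.7 and 53.5 with LPS in the GFP line. For Nur77 cells it ranked 69.1, 83.0 and 77.3 without and 35.1, 57.7 and 41.9 with LPS. LPS values fall under untreated values in both lines, with differences of -31.8 ± 7.1 (limma adjusted p = 0.005) and -31.6 ± 7.1 (adjusted p = 0.00661).

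No region of Bst2 (tetherin, which holds budding virions), Trim25 (a ubiquitin ligase of RNA sensing) or Xaf1 (a pro-apoptotic protein) passed a test. The Bst2 start ranked between 50.8 and 72.2 and the Trim25 start between 59.7 and 79.6 in all libraries. A region inside Trim25, chr11:89005884-89006893, ranked 30.9, 13.4 and 19.1 in GFP and 1.0, 2.0 and 1.5 in Nur77 untreated libraries, where the lines do not overlap (-19.7 ± 5.9, limma adjusted p = 0.0553). The Xaf1 start, chr11:72300990-72302356, ranked 16.7, 21.5 and 24.9 in untreated GFP, 26.6, 39.2 and 31.9 in GFP LPS, 37.4, 34.0 and 37.5 in untreated Nur77 and 54.2, 40.9 and 35.2 in Nur77 LPS libraries. Untreated GFP libraries were lower than all others there, with differences of 11.5 ± 5.6 for LPS in the GFP line (adjusted p = 0.169) and 15.2 ± 5.6 between the untreated lines (adjusted p = 0.116). The Ifi35 start ranked between 71.3 and 81.1. A region 3.7 kb from Ifi35, chr11:101462355-101469242, in the spans of Rnd2 and Vat1, ranked 89.8, 88.4 and 86.1 without and 97.0, 95.0 and 94.3 with LPS in the GFP line (7.3 ± 2.0, limma adjusted p = 0.0192), against 5.6 ± 2.0 (adjusted p = 0.0805) in the Nur77 line. The call was lost without GFP untreated replicate 2 (adjusted p = 0.0508), GFP untreated replicate 3 (0.0794) or GFP LPS replicate 1 (0.074).

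**Figure D4:**
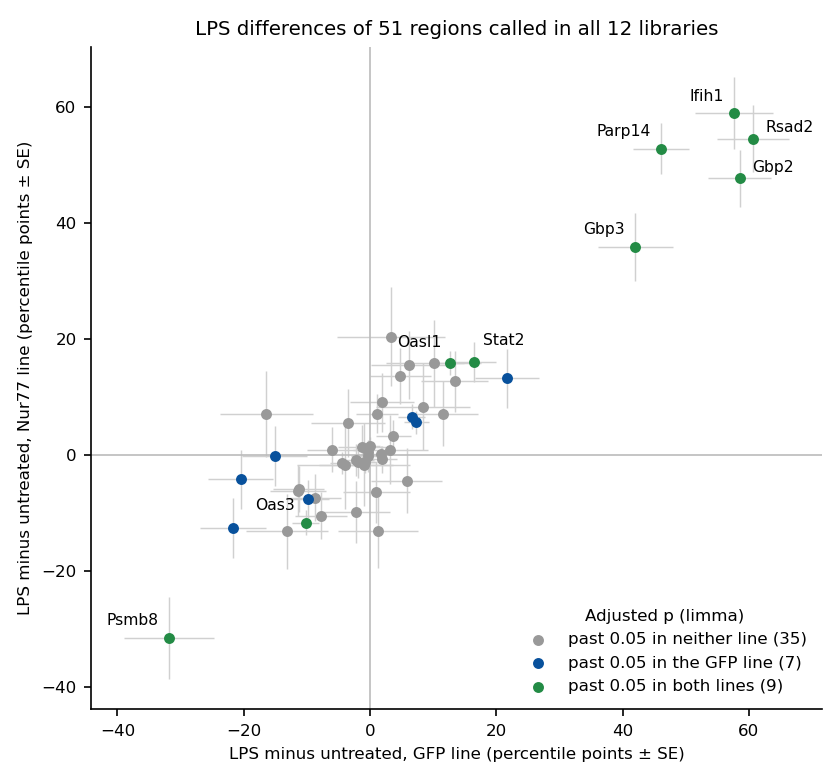
LPS difference in rank (LPS minus untreated, percentile points ± SE) of the 51 member regions called in all 12 libraries, GFP line on the horizontal and Nur77 line on the vertical axis. Green points passed limma's adjusted p of 0.05 in both lines and carry the name of the nearest member, and blue points passed in the GFP line. Green points lie at like values in both lines, from -31.8 and -31.6 near Psmb8 to 60.6 and 54.6 near Rsad2.

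The calls themselves were compared as well. In the GFP line 11 member regions were called in all 3 LPS and no untreated library, against 1.96% of all regions, and none the other way, against 1.02%. On the Nur77 side 8 were, against 1.94% of all regions, and again none the other way, against 0.46%. Ifih1 held 6 of the 11 and 5 of the 8, and 5 of its regions were called in all 6 LPS and no untreated library, against 0.568% of all regions. The others were, in the GFP line, chr5:114913387-114914147 near Oasl2, chr16:35843909-35844456 in Parp14 and 3 regions at Rsad2 and Cmpk2, and in the Nur77 line the regions in Gbp5, Oas2 and Parp14 given above. Leaving out GFP LPS replicate 1, the shortest list of its group, raised the 11 to 28, and leaving out Nur77 LPS replicate 3 raised the 8 to 14. With a library fewer the rule asks for fewer calls, so such a count can rise but not fall. Shares of all regions under that looser rule are not given here.

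With 6 against 6 libraries, Fisher's exact test (two-sided) gave no region of the whole series an adjusted p of at most 0.05. Among the 33 member regions tested, 8 had an unadjusted p of at most 0.05 for LPS, 6 at Ifih1 and 2 at Parp14, where 5.56% of all tested regions were more often called with LPS at that level. None of the 8 was called in an untreated library, so they too are in the set through LPS libraries alone. When every list was cut to the 36184 strongest peaks, 4 member regions passed after adjustment (adjusted p = 0.0351 each), against 5.25% of all regions tested in those lists. They were the 2 regions at and past the 3' end of Ifih1, the region inside Gbp5 and the Ifit1 start. In the cut lists each was called in all LPS libraries and in no untreated one. They are thus in that set through LPS libraries alone, and their passing follows in part from that choice.

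Rsad2 and Cmpk2 are taken apart from the rest because chromosome 12 as a whole ranked lower in the Nur77 line. Of 1054 shared regions on that chromosome, 37.2% ranked lower in Nur77 than in GFP cells without LPS and 42.4% with LPS, at median differences of -10.4 and -10.53, against 4.91% and 5.47% of all shared regions. Rsad2 encodes viperin, which makes a chain-terminating nucleotide that stops viral polymerases, and Cmpk2, its neighbour, is a mitochondrial nucleotide kinase. Any line difference at them has to be read beside the chromosome's own, and the share of it that belongs to the genes was not tested.

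Regions around Rsad2 ranked higher with LPS. The region 2.4 kb past the 3' end of Rsad2, chr12:26438058-26440300, ranked 32.3, 18.8 and 38.7 without and 96.5, 84.9 and 90.2 with LPS in the GFP line. With Nur77 in place of GFP it ranked 8.0, 4.0 and 4.9 without and 56.9, 63.4 and 60.4 with LPS. LPS libraries stood above untreated ones in both lines, and Nur77 libraries stood below GFP libraries in both states. The LPS differences were 60.6 ± 5.7 (limma adjusted p = 3.66e-06) and 54.6 ± 5.7 (adjusted p = 1.13e-05), the largest of all member regions in the GFP line among those called in all 12 libraries.

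Upstream of Rsad2, chr12:26459507-26461315 ranked higher with LPS in both lines. It ranked 15.1, 6.2 and 7.2 without and 62.9, 68.8 and 66.4 with LPS in the GFP line. In the Nur77 line it ranked 4.7 in replicate 1 and was not called in replicates 2 and 3 without LPS, and ranked 52.3, 56.3 and 54.5 with it. The all-region fit gave 56.5 ± 3.1 (adjusted p = 1.02e-05) and 52.8 ± 3.1 (adjusted p = 1.88e-05). All Nur77 LPS libraries lay below all GFP LPS libraries, and the difference of -11.6 ± 3.1 did not pass (adjusted p = 0.0599).

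The start and body of Rsad2 looked different between the lines. The start region, chr12:26455539-26456970, ranked 5.1, 0.6 and 0.6 without and 61.3, 49.7 and 50.9 with LPS in the GFP line. Among Nur77 libraries it ranked 2.9 in replicate 1, was not called in replicates 2 and 3, and reached 11.5, 28.7 and 14.2 with LPS, under all 3 GFP LPS libraries. The all-region fit gave 51.8 ± 5.0 (adjusted p = 0.000222) for LPS in the GFP line, 17.1 ± 5.0 (adjusted p = 0.0934) in the Nur77 line and -35.8 ± 5.0 (adjusted p = 0.003) between the lines after LPS. The difference of the 2 responses, -34.7 ± 7.1, had an adjusted p of 0.0784.

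The region at the 3' end of Rsad2, chr12:26441157-26443861, was called in GFP untreated replicates 2 and 3 at 3.3 and 12.3 and in all GFP LPS libraries at 29.4, 43.3 and 42.1. It was called in no Nur77 library, so it is in the set through GFP libraries alone, and every Nur77 value was set to 0. The all-region difference between the lines after LPS was -38.3 ± 4.5 (adjusted p = 0.00113), and that of the 2 responses -33.1 ± 6.3 (adjusted p = 0.0601). These line values follow in part from that choice. Smaller regions at chr12:26452098-26453696, chr12:26454492-26455014 and chr12:26464406-26464743 were called in all 3 GFP LPS libraries, at ranks from 0.3 to 14.2, and in no other library. Peaks covered 2.7%, 2.52% and 3.01% of the Rsad2 span in untreated GFP and 19.4%, 20.1% and 39.6% in GFP LPS libraries, against 3.27%, 0.0% and 0.0%, and 5.81%, 2.74% and 2.51%, in the Nur77 line. The Cmpk2 start, chr12:26468969-26470300, ranked 15.1, 10.9 and 19.1 without and 32.1, 23.8 and 22.5 with LPS in the GFP line, and 4.2 to 17.6 where called in the Nur77 line, without passing a test.

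**Figure D5:**
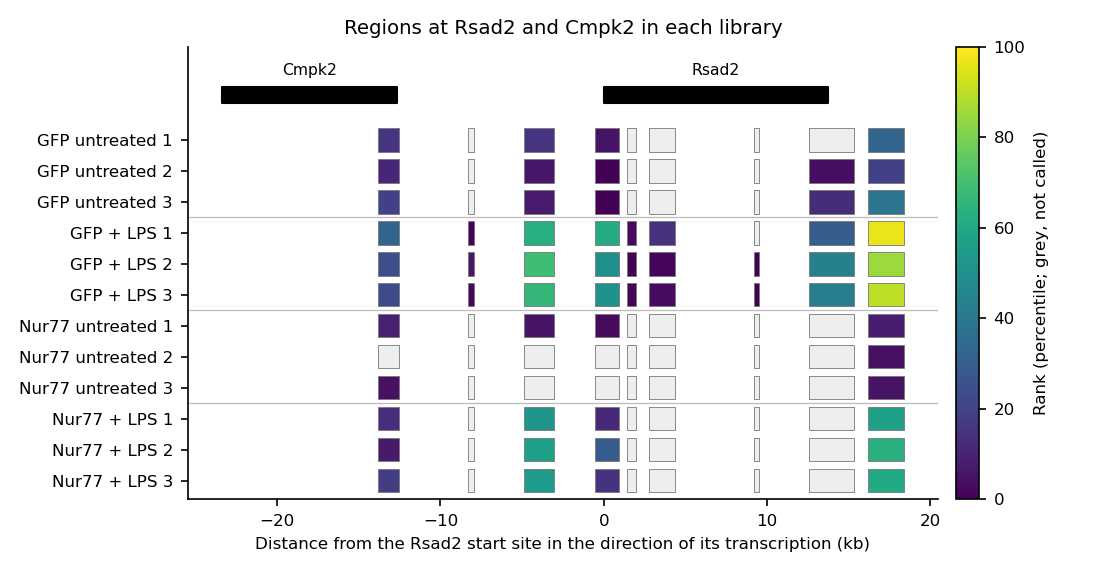
The 9 regions near Rsad2 and Cmpk2 on chromosome 12 in each library, by distance from the Rsad2 start in kb, counted in the direction of its transcription. Color is the rank (percentile), grey a region not called, and black bars are the gene spans. GFP LPS libraries are brightest throughout, and Nur77 LPS libraries reach ranks of 52.3 or more only in the region about 3 kb upstream of the Rsad2 start and the one past its 3' end, and are dark or grey in the other 7.

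Between the lines, few member regions differed. Without LPS none of the 51 ranked higher in Nur77 cells and 3 ranked lower, where 2.92% of all shared regions ranked higher and 4.91% lower. The 3 were the region past Rsad2 (-24.3 ± 5.7, limma adjusted p = 0.0148), the Irgm1 start given above, and chr17:34201503-34206665 at the far end of Psmb8, reaching into Tap2. The last ranked 62.1, 63.2 and 58.0 in GFP and 33.8, 19.8 and 39.8 in Nur77 untreated libraries (-30.0 ± 7.4, adjusted p = 0.0194). After LPS it ranked 46.6, 31.1 and 56.5 in GFP and 37.8, 27.0 and 49.8 in Nur77 cells, where the lines overlap. Without GFP untreated replicate 1 none of the 3 calls remained, with adjusted p of 0.0526 for Rsad2, 0.0845 for Irgm1 and 0.0605 for Psmb8. Without GFP untreated replicate 2 the count was 1, and the Rsad2 call was also lost without GFP untreated replicate 3 (adjusted p = 0.0819) and the Psmb8 call without Nur77 untreated replicate 2 (adjusted p = 0.0976).

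After LPS, 1 of the 51 ranked higher in Nur77 cells and 1 lower, where 3.13% of all shared regions ranked higher and 5.47% lower. The lower was again the region past Rsad2 (-30.3 ± 5.7, limma adjusted p = 0.00375). The higher was the Psmb8 start, also within 10 kb of Tap1 and Psmb9, chr17:34197131-34198864, at 48.8, 63.2 and 57.5 in GFP and 68.6, 75.2 and 69.3 in Nur77 libraries (14.5 ± 4.0, adjusted p = 0.0353). That call was lost without any 1 of GFP LPS replicates 1 (10.2, adjusted p = 0.118) and 3 or Nur77 LPS replicates 1, 2 and 3 (adjusted p from 0.0626 to 0.134). Outside chromosome 12 the median line difference was 0.18 without and 1.15 with LPS over the 50 regions, against 0.34 and 0.59 over all shared regions.

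By calls, 3 member regions were called in all 3 GFP and no Nur77 library without LPS, against 3.4% of all regions, and none the other way, against 0.308%. They lie in Gbp5, in Oas2 and 6.4 kb from Oas1a. After LPS 4 were, against 2.18% of all regions and 5.79% of those on chromosome 12, and all 4 lie at Rsad2 and Cmpk2. None was called the other way, against 0.304% of all regions. Without GFP LPS replicate 1 the 4 became 9 and without GFP LPS replicate 2 they became 8. Without GFP untreated replicate 1 the 3 became 6, and without Nur77 untreated replicate 1 they became 5. These counts too rest on the looser rule, and shares of all regions under it are not given here. The untreated Nur77 libraries include the shortest list, of 36184 peaks, and in lists cut to that length the 3 fell to 0 and the 4 to 2. In Fisher's exact test (two-sided) 2 of 33 member regions, at Oas1a and the Rsad2 3' end, had an unadjusted p of at most 0.05 between the lines, where 7.32% of tested regions were less often called in Nur77 cells at that level. Neither of the 2 was called in a Nur77 library, so they are in the set through GFP libraries alone.

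The LPS response itself did not differ between the lines at any of the 51 regions by limma, where 0.0152% of all shared regions had a greater and 0.00379% a smaller response in Nur77 cells. The lowest unadjusted p of the 51 were at the Irgm1 start, given above, and the region at the far end of Psmb8 (23.5 ± 10.4, unadjusted p = 0.0387, adjusted p = 0.572). In the all-region fit no member region passed either. After adjustment that fit called 0.181% of all regions greater and 0.51% smaller in Nur77 cells. The response in Nur77 minus that in GFP cells was 1.4 ± 8.7 at the start of Ifih1, -10.7 ± 7.1 at Gbp2, -6.0 ± 8.4 at Gbp3, -9.8 ± 7.5 at Isg15, -11.6 ± 7.5 at Ifit1, 6.7 ± 6.2 at the Parp14 end and, on chromosome 12, -34.7 ± 7.1 at the Rsad2 start. With standard errors of this size the tests do not show that the responses were equal.

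The pathway around these genes is given by counts, to be read beside the 10.3% of all shared regions that ranked higher and 8.54% lower in the GFP line, and the 8.28% and 5.95% in the Nur77 line. Of 11 shared regions near interferon ligands and receptors, 2 (18.2%) ranked higher and 1 (9.09%) lower after LPS in the GFP line and 1 and 1 in the Nur77 line. A region 9.2 kb from Ifnar2, a subunit of the type I interferon receptor, rose from a mean of 57.4 to 82.4 in the GFP line and from 46.7 to 75.9 in the Nur77 line (25.0 ± 4.4 and 29.2 ± 4.4, limma adjusted p = 0.000869 and 0.0003). Another, 5.1 kb from Ifnar2, fell from 51.2 to 26.2 and from 55.1 to 15.4 (adjusted p = 0.021 and 0.00124). A region inside Ifngr2, a subunit of the interferon gamma receptor, was higher in Nur77 cells, at 62.7 against 24.3 without and 64.7 against 15.6 with LPS (38.4 ± 5.7 and 49.1 ± 5.7, adjusted p = 0.000676 and 0.000103). It was the only 1 of the 11 (9.09%) past the test between the lines in either state. Of all shared regions 2.92% ranked higher and 4.91% lower in Nur77 cells without LPS, and 3.13% and 5.47% with LPS.

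Of 29 shared regions near signaling genes, 3 (10.3%) ranked higher and 2 (6.9%) lower after LPS in the GFP line and 5 (17.2%) and 3 (10.3%) in the Nur77 line. A region 5.0 kb from Irf1, an early transcription factor of the response, rose from 91.4 to 97.2 and from 88.9 to 94.1 (limma adjusted p = 0.00667 and 0.0159). The region at Socs3, a feedback inhibitor of cytokine receptors, rose from 83.6 to 90.5 and from 82.4 to 93.9 (adjusted p = 0.0341 and 0.00185). A region in Jak1, a receptor kinase, fell from 42.9 to 14.8 and from 55.4 to 24.6 (adjusted p = 0.00681 and 0.0048), and one near Irf7, which drives interferon genes, fell in the Nur77 line from 47.5 to 27.0 (adjusted p = 0.0249). Between the lines 4 of the 29 (13.8%) ranked higher in Nur77 cells and 0 lower without LPS, and 2 (6.9%) and 1 (3.45%) with LPS. A region in Tyk2 was higher in Nur77 cells, at 73.2 against 48.6 without and 66.3 against 34.2 with LPS (adjusted p = 0.0389 and 0.00893). The others were regions in Jak1 and another in Tyk2, higher without LPS, and with LPS a region near Socs3, higher, and a region in Jak1, lower.

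Of 20 shared regions near nucleic acid sensors, 2 (10%) ranked higher and 3 (15%) lower in the GFP line and 2 and 1 in the Nur77 line. A region in Aim2, a DNA sensor of the inflammasome, fell from 41.8 to 15.2 and from 43.5 to 18.3 (limma adjusted p = 0.00525 and 0.00957). Of 44 shared regions near 23 further interferon-stimulated genes, 8 (18.2%) ranked higher and 3 (6.82%) lower in the GFP line and 5 (11.4%) and 2 (4.55%) in the Nur77 line. The region at Cxcl10, a chemokine that draws T cells, rose from a mean rank of 5.1 to 80.2 in the GFP line and from 20.1 to 89.3 in the Nur77 line (75.1 ± 5.1 and 69.3 ± 5.1, adjusted p = 2.3e-07 and 4.37e-07). That is a wider swing than at any of the 51 member regions. Near Gbp9 a region rose from 9.1 to 30.0 and from 12.6 to 37.7 (adjusted p = 0.025 and 0.0113).

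Set against the printed promoters, members with the ISRE string before or near the start went in both directions or did not pass. Among the 17 members with the string, the start region passed a test upward in at least the GFP line for Ifit1, Isg15, Gbp2, Gbp3, Ifih1 and Rsad2, downward for Oas3 and Irgm1, and in neither direction for Bst2, Eif2ak2, Gbp5, Gbp7, Ifit3, Igtp, Irgm2, Oas1a and Stat2. Oasl1, whose start ranked higher after LPS in both lines, has no match in its window. Irf9, whose start passed downward in the GFP line, a call lost under most alternatives, has none either. No other start region of a tabled member without the string passed for LPS. In the GFP line 10.3% of all shared regions ranked higher and 8.54% lower, and in the all-region fit 6.79% and 3.38% of all regions did. Ifit1, Isg15 and Rsad2 in this account rest on the all-region fit.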

How the data were processed

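Chromatin accessibility was measured by ATAC-seq in 12 samples, grouped by genotype and treatment as the titles and characteristics give them. The submitters' processing notes name mm10 as build, cutadapt 2.6 and DiffBind 3.0.15; which programs aligned reads and called peaks is not given in the sources used here. In the authors' files each peak's name carries mapQ20, woMT, dedup and a q value of 0.001. Ifit, Oas, Gbp and Irgm genes have near-identical copies whose reads a mapping quality filter can drop; this was not tested. Each library has its own deposited peak list, called separately. The deposited score is the authors' whole number per peak, the deposited fold is the authors' enrichment ratio at the summit, and the deposited -log10 p and -log10 q are the authors' summit values. They served only to rank or filter peaks within a list.

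Peaks were merged into 100374 regions, of which 76042 lay in at least 2 lists. A library called a region where a peak overlapped it by at least 1 bp. Gene spans (21887 protein-coding genes) and starts came from RefSeq tables of the same build, which give no exons, so exon and intron are not stated. Differences in rank were fitted with limma 3.58.1 (trend, 4 group means, 12 libraries) in R 4.3.3 with Benjamini-Hochberg adjustment over all regions at 0.05. Calls in 4 to 8 of 12 libraries were compared by Fisher's exact test, 6 against 6, adjusted over 20292 regions. With 3 against 3 libraries the smallest two-sided exact p is 0.1, so such calls are counted without a test. Both tests were checked on simulated data. Tables, tests and plots were made in Python 3.11.15 (scipy 1.17.1, pandas 2.3.3, matplotlib 3.10.9).

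All 36 members are named; their regions were chosen for description among those at gene ends, past a threshold or with separate calls, and the others are given in counts. The members, lists and comparisons were chosen with earlier results of these data known. No 2 libraries shared more than 0.003% of their q values, so all were counted as separate. Alternatives covered the rank scale, the value ranked, list length, depth, replicate block, distance, samples in the fit and each library left out. The fit over all regions was also run with each library left out, with the block and with list length.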

Additional observations from a re-analysis of the deposited data

How the results depend on the processing

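Of 30 differences of shared member regions past the test, none changed direction under the alternatives run: of 581 values, 521 kept their call and 60 lost it. Of 23 differences outside the shared set that passed the all-region fit, run only with each library left out, the replicate block and list length, 276 of 322 values kept their call, 46 lost it and none changed direction. Some of these regions were called only in LPS or only in GFP libraries. Their other side was set to 0 throughout, so keeping the call follows in part from how they entered the set. Limits were as follows. Ranking by the authors' fold gave the same order as the q value. Its 30 values, counted among the 521, therefore could not lose a call. Asking for overlap of at least 50% of a peak or region changes nothing, since each peak lies inside its merged region. That alternative was not run separately. Calling a region only where peaks cover at least 50% of it, added after the data were seen, left 6 member regions past the test for LPS in the GFP line (2 higher, 4 lower), 2 in the Nur77 line (0 higher, 2 lower) and 1 between the lines after LPS (lower), over 24 shared member regions. The all-region fit was also added afterwards. It gave 24 for LPS in the GFP line (20 higher, 4 lower) and 15 in the Nur77 line (13 higher, 2 lower). Between the lines after LPS it gave 7 (1 higher, 6 lower). Of all 76042 regions it called 6.79% higher and 3.38% lower, 3.76% and 1.7%, and 1.42% and 4.58%, in the same order. These counts hold regions that only LPS or only GFP libraries called. Within 50 kb of the genes, where more regions count, the numbers were 25 and 14 for LPS in the GFP and Nur77 lines, 8 and 7 for the lines without and with LPS, and 7 regions called in all untreated GFP and no untreated Nur77 library or the reverse. Within 2 kb, and with only the 2 groups compared, 1 differed between the lines after LPS. With the log2 number of peaks as a covariate 1 differed between the untreated lines. With lists of equal length 4 regions passed Fisher's exact test for LPS, and regions called in all libraries of 1 group and none of the other numbered 5 for LPS in the GFP line, 0 between the untreated lines and 2 between the lines after LPS. Without Ifih1, an alternative added afterwards, they numbered 5 and 3 for LPS in the GFP and Nur77 lines. The causes were not tested. Shares of all regions are given for only some of these settings, and the other counts do not set the members apart.

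Leaving out each library in turn gave 12 to 18 regions for LPS in the GFP line, 9 to 11 in the Nur77 line, 0 to 4 between the untreated lines and 1 to 2 after LPS; separate calls ran from 11 to 28, 9 to 14, 3 to 6 and 4 to 9 in the same order. Separate calls can only rise or stay when a compared group loses a library, since the rule then asks for fewer calls. Replicate numbers did not pair the samples: same-numbered deviations correlated at -0.18 to 0.16. With the replicate number as a block, 15, 10, 3, 2 and 0 regions passed for LPS in the GFP line, LPS in the Nur77 line, the lines without LPS, the lines with LPS and the difference of responses, and of the shared regions Usp18 lost its call. Depth is known only as list length, so a missing call in a short list does not show closed chromatin.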
